A study of Mus musculus with 16 samples.

Results

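The gene models described here were the spliced models of the merged mouse assembly that stretched over at least 200 kb of a placed chromosome. A model is a set of transcripts to which the assembly gave one gene identifier, and it was included where at least 1 transcript of 2 or more exons spanned 200 kb from its first to its last base. The rule used the span and no expression value, although it was chosen with earlier results of these data known. The spans came from an assembly of these same libraries, so whether a model reached 200 kb can depend on where it was expressed. The rule found 1152 models among 27,515 spliced models and 59,180 models of every kind on placed chromosomes. In 924 of them (80.2%), a transcript of at least 200 kb had an intron chain annotated in GENCODE M21. The comparison set was made of the 5970 spliced models whose widest spliced transcript spanned 20 to 50 kb. At the edge of the rule, 10 long models were less than 1 kb above the limit, and 3 models less than 1 kb below it were left out.

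Long genes owe their length to introns. The polymerase needs hours to transcribe the longest of them, their first introns often carry enhancers and other transcripts, and splicing must join exons that lie far apart in the nascent RNA. In mammals, many of the longest genes encode proteins of synapses, axons and neuronal membranes, others encode giant muscle and matrix proteins, and several lie at sites where chromosomes break easily under replication stress.

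RNA from adult C57BL/6J mice was enriched for targeted loci by hybridization to designed probes before sequencing, a method called CaptureSeq. The lncRNA design targeted annotated and predicted loci of long noncoding RNAs (lncRNAs), and the splice junction design targeted sequence beside annotated splice sites, without the regions most abundant in published brain RNA. Each of 8 tissues gave 1 library per design, which made 16 libraries. The brain group was made of the olfactory bulb, the cortex, the cerebellum and the whole brain (labelled Brain). The nonbrain group was made of liver, kidney, heart and an organ labelled testis, all of the same strain with no treatment or genotype contrast. Brain RNA was extracted with TRIzol, and nonbrain organs were stored in RNAlater and extracted with RNeasy columns. The captures were hybridized in separate brain and nonbrain pools, and the nonbrain pools had 1 more amplification cycle after capture. Before capture, the samples that the paper names brain and liver had more cycles than the rest. Extraction, pool and tissue group therefore cannot be told apart. Since the libraries held whole organs, fewer cells of a type and less RNA per cell cannot be told apart either. With 1 library per tissue and design, the p-values below measure the spread between tissues and not between animals. The brain tissues are also overlapping parts of 1 organ, because whole brain contains the cortex, the cerebellum and the olfactory bulb. The nonbrain tissues are separate organs. The brain against nonbrain fit counted each tissue as a separate unit, so the spread within brain can be too small and these p-values too low.

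Tissue markers were highest in the labelled tissue for all neuronal, cerebellar, cortical, olfactory bulb, kidney and liver genes measured and for 2 of 3 heart genes. In the libraries labelled testis, however, 0 of 5 measured germ cell markers were highest, and 6 of 6 keratinocyte markers were. These libraries are called labelled testis throughout, and results for the brain comparison are also given without them. The depth was 8,930,235 to 43,889,288 estimated fragments per library, with 7.81 to 45.6% of them on the ERCC spike-ins. Values are estimated fragments per gene model, scaled between libraries, and a comparison between genes would need a division by length that was not made here.

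The widest introns of these models were shown by their exon junctions, because the genes with the widest annotated introns were the ones assembled in pieces. Each line below gives the 15 last bases of the upstream exon and the 15 first bases of the downstream exon, 5′ to 3′ in the direction of transcription, from the transcript sequences of GENCODE M21 (GRCm38). Capitals mark the last 2 exonic bases before the intron and the first base after it. Of the 10 longest introns of the assembled models, several were not annotated, among them the longest, in Wwox (299,560 nt). The first 5 introns shown were taken from the annotated ones of these 10. They were those of Hdac9 (a histone deacetylase) at chr12:34528346-34827636 on the minus strand, Celf2 (an RNA-binding splicing regulator) at chr2:6664198-6962378 on the minus strand, Pde4d (a cyclic AMP phosphodiesterase) at chr13:109442354-109740386 on the plus strand, Ptprt (a receptor tyrosine phosphatase) at chr2:162363027-162660799 on the minus strand and Negr1 (a neuronal cell adhesion protein) at chr3:156562334-156859504 on the plus strand.
Hdac9: cgccggtgcagccAGAtggagtggccggac
Celf2: tggaagtccaccaAGGttgttgtttcgtaa
Pde4d: gcattcctggataTGTttcgatgtggacaa
Ptprt: cgcagagcgccgcAGGtggctgttcttttg
Negr1: tgctggtgaggaaAGGtgacaagtggtcag

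A second set of junctions is shown because no assembled transcript contained them. They span annotated introns of Cntnap2 (a contactin-associated adhesion protein; chr6:45060387-45653993, plus strand, 593,607 nt), Lrp1b (a giant lipoprotein receptor; chr2:41435634-42323593, minus strand, 887,960 nt), Macrod2 (an ADP-ribose hydrolase; chr2:141024142-141515203, plus strand, 491,062 nt) and Dlg2 (the postsynaptic scaffold PSD-93; chr7:90915535-91449753, plus strand, 534,219 nt).
Cntnap2: ctccctccacgttCCAaaaatgtgatgagc
Lrp1b: agtctttagatacCTCcaggacctgccagg
Macrod2: acctccctgcaaaGTAtgtcatccatactg
Dlg2: gtccaccactgtaCTAagtatcgataccaa

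The junctions of very wide introns resembled those of short ones in these exonic bases. An upstream exon ending in AG joined to a downstream exon starting with G at 349 of 1377 annotated introns of at least 100 kb in long models (25.3%). The share was 26.7% of 18,946 introns under 10 kb in the same models and 27.1% of 67,620 introns of the 20 to 50 kb models. The intronic bases were not read here.

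No intron of the whole assembly was longer than 299,560 nt, whereas GENCODE M21 lists 192 introns over 300 kb. Long annotated genes with such an intron were therefore present in pieces. Of 1091 M21 genes of at least 200 kb, 986 had a long model. Among the 964 whose introns were all up to 300 kb, 893 had a long model, and the widest model covered a median of 100% of the annotated span. Among the 127 with an intron over 300 kb, 93 had a long model, and the median coverage was 50%. The widest model covered 46.3% of Cntnap2, 68.6% of Lrp1b, 60.1% of Dlg2, 36.1% of Nrxn3 (a presynaptic neurexin), 19.9% of Fhit (a fragile site gene for a nucleotide hydrolase) and 17.8% of Macrod2. Lsamp, a neuronal adhesion gene, had no long model, and its widest spliced transcript covered 1.39% of the annotated span. The intron limit set for the assembly is not given in the sources used here. GENCODE M21 is also later than the M4 release that guided the assembly, and the part of either in these gaps was not tested.

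**Figure D1:**
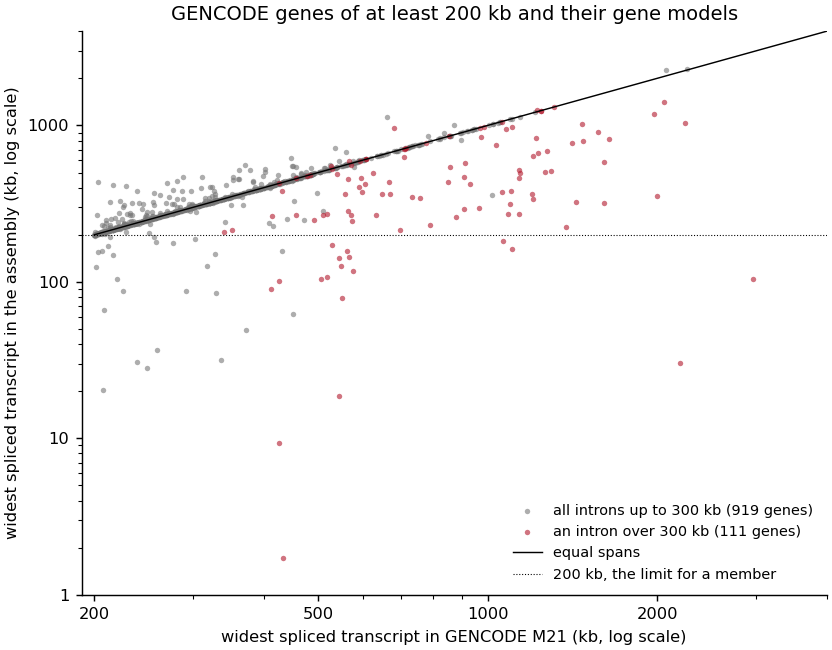
Span of the widest assembled spliced transcript (kb, log scale) against the widest spliced transcript in GENCODE M21 (kb, log scale), 1 point per annotated gene of at least 200 kb, coloured by whether the gene has an annotated intron over 300 kb. Genes without such an intron lie mostly on the diagonal (median 100% of the span), and genes with one lie mostly below it (median 50%).

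The long models had a median span of 306 kb (quartiles 239 and 421 kb). Spans of at least 300 kb were held by 593 models, of at least 500 kb by 181, of at least 1000 kb by 23 and of at least 2 Mb by 2. The widest were Dmd, the gene of dystrophin that anchors the muscle membrane (2,303,338 nt), and Ptprd, a synaptic receptor phosphatase (2,270,724 nt). Lrp1b (1,412,937 nt), Lrrc4c (a netrin-G ligand; 1,313,755 nt), Lingo2, Cntn5, Csmd3, Dlg2 and Cdh12 were also among the 10 widest.

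Most of the added length was intron. The median longest intron was 137 kb against 13.5 kb in the 20 to 50 kb models, while the widest transcript had a median of 15 exons against 8 and a spliced length of 4408 nt against 2555 nt. Exons made up a median of 1.29% of the span, against 8.27%. Of 32,560 introns in long models, 86.2% were in GENCODE M21. Introns of at least 100 kb numbered 1849 in 819 models, and 74.5% of them were annotated.

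By the annotation their exons overlapped, 1045 long models (90.7%) were protein-coding, 94 (8.16%) were lncRNA models, 7 were of other classes and 6 overlapped no GENCODE gene. The share of lncRNA models was 14.0% at 20 to 50 kb. A transcript of at least 200 kb with an annotated intron chain was present in 924 long models (80.2%), although the widest transcript itself matched an annotated chain in only 468 (40.6%). Exons of 2 or more GENCODE genes were joined in 179 long models (15.5%), against 8.26% at 20 to 50 kb, and the values of such models cannot be given to 1 gene. A total of 18 symbols were held by several long models, among them Dlg2, Nrxn3, Macrod2, Pde4d and Rbfox1.

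Long models took a larger part of the brain libraries than of the nonbrain libraries in both designs. With the splice junction design they held 23.1% of the value outside the spike-ins in whole brain, 24.2% in cerebellum, 25.5% in cortex and 24.9% in olfactory bulb. The same share was 12.5% in heart, 10.2% in kidney, 6.38% in liver and 6.46% in the library labelled testis. The groups did not overlap, and the 20 to 50 kb models ran the other way, with 19.5 to 20.7% in brain and 23.5 to 34.1% in nonbrain libraries.

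With the lncRNA design the long models held 5.73 to 8.04% in the 4 brain libraries and 2.76 to 4.82% in the nonbrain libraries, again without overlap. Detection followed the same order. A fragment was assigned to 96.3 to 97.7% of the long models in brain and 79.5 to 86.7% in nonbrain libraries with the splice junction design, and to 89.9 to 93.5% and 63.1 to 74.0% with the lncRNA design. Detection of the 20 to 50 kb models was also higher in brain with the splice junction design (81.8 to 84.1% against 74.3 to 79.3%). With the lncRNA design it was 70.0 to 71.6% in brain and 58.8 to 71.3% in nonbrain libraries. Only 6 long models were at 0 in every library.

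Much of this value did not lie on the wide transcripts themselves. With the splice junction design, transcripts spanning at least 200 kb carried 73.5 to 75.6% of the long models' value in brain and 47.2 to 71.2% in nonbrain libraries. With the lncRNA design they carried 37.2 to 49.0% and 32.9 to 41.0%. The rest lay on shorter isoforms of the same models. A few models led each library. Syne1, which encodes the giant nuclear envelope protein nesprin-1, held 3.96% of the long models' mean splice junction value in brain. Ryr2, the calcium release channel of heart muscle, held 7.05% of that in the nonbrain group, and Zbtb20, a transcriptional repressor, held 14.9% of the nonbrain lncRNA design value.

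**Figure D2:**
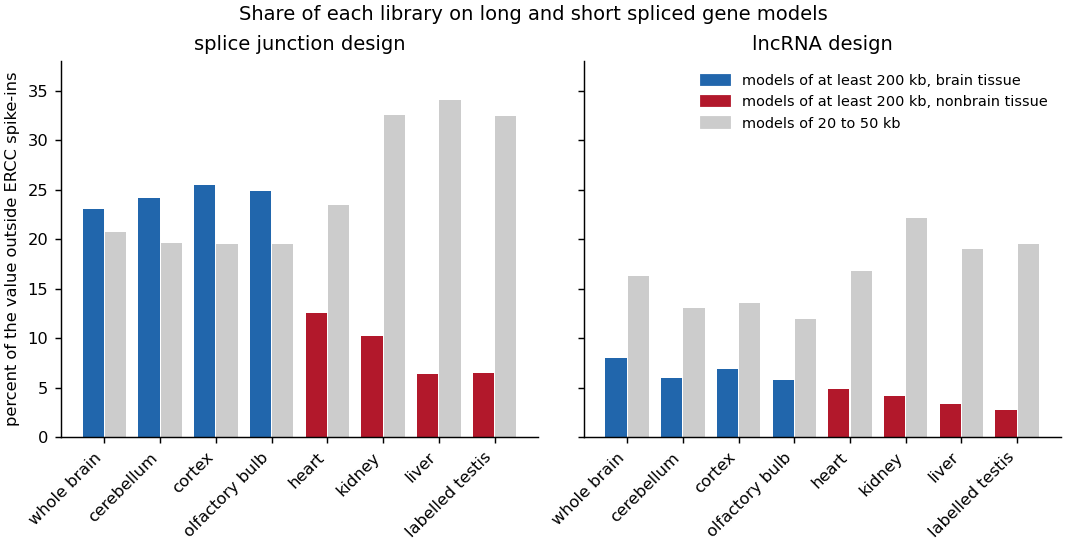
Percent of each library's value outside the ERCC spike-ins on long models and on models of 20 to 50 kb, by tissue, in 1 panel per capture design. In the splice junction panel the long models hold 23.1 to 25.5% of the 4 brain libraries and 6.38 to 12.5% of the 4 nonbrain libraries.

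Brain was then compared with nonbrain for each model, to ask whether long models differ from shorter ones in how they are distributed over tissues. The test was limma on log2(value + 1), averaged over both designs in each tissue, with 4 brain against 4 nonbrain tissues and Benjamini-Hochberg adjustment over the 30,849 models whose mean value reached 10 or more. Folds are on this log2(value + 1) scale, where the change of a low gene comes out too small. A total of 1095 long models passed this filter on the mean over all libraries. Of these, 530 (48.4%) were higher in brain at an adjusted p under 0.05, against a background of 22.8% of all models tested. A total of 61 (5.57%) were lower, against a background of 8.41%. At 20 to 50 kb, 18% were higher and 14.2% lower. The median log2 difference was 2.01 for the long models, 0.03 at 20 to 50 kb and 0.35 for all models tested. All nonbrain libraries were at 0 for 43 of the long models and all brain libraries for 2, and with these set to the level that 3 fragments per library would give, the median was 1.96.

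The share of models higher in brain was larger in wider classes. It was 16.9% for spliced models under 5 kb (n = 2123), 17.6% at 5 to 20 kb (n = 5577), 18% at 20 to 50 kb (n = 4546), 23.2% at 50 to 100 kb (n = 2569) and 31.6% at 100 to 200 kb (n = 1622). Within the long models it was 42.9% at 200 to 400 kb (n = 773), 60.0% at 400 to 800 kb (n = 265) and 68.4% at 800 kb and more (n = 57). The share lower in brain fell over the same classes from 14.3% to 1.75%, with its highest value of 15.5% at 5 to 20 kb. The median log2 difference was 1.58, 3.33 and 5.14 in the 3 widest classes.

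In each class examined, the share higher in brain was larger among long models than at 20 to 50 kb, by a smaller margin for lncRNAs. Protein-coding long models were higher in 48.1% and lower in 5.81% of cases, against 16.4% and 15.0% at 20 to 50 kb. Of the lncRNA long models, 33 of 68 (48.5%) were higher and 2 of 68 (2.94%) lower, against 30.6% and 8.28%. Among long models whose mean value reached 1000, 43.0% were higher and 8.8% lower, while at 20 to 50 kb the same level gave 11.5% higher and 33.9% lower. By number of exons in the widest transcript, 52.1% of long models with under 10 exons, 47.0% with 10 to 19 and 47.1% with 20 or more were higher, against 20.8%, 15.1% and 16.1% at 20 to 50 kb. Without the models that joined 2 or more GENCODE genes, 50.2% were higher and 5.21% lower, against 17.9% and 14.3%. Without the libraries labelled testis, the shares were 47.2% and 5.75%. Quantile normalization moved the median log2 difference of all models tested from 0.35 to -0.24 and gave 43.7% higher and 7.21% lower among long models, against 11.6% and 21.1% at 20 to 50 kb. Relative to the median of all models, the median of the long models was 1.66 as deposited and 1.79 after quantile normalization.

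**Figure D3:**
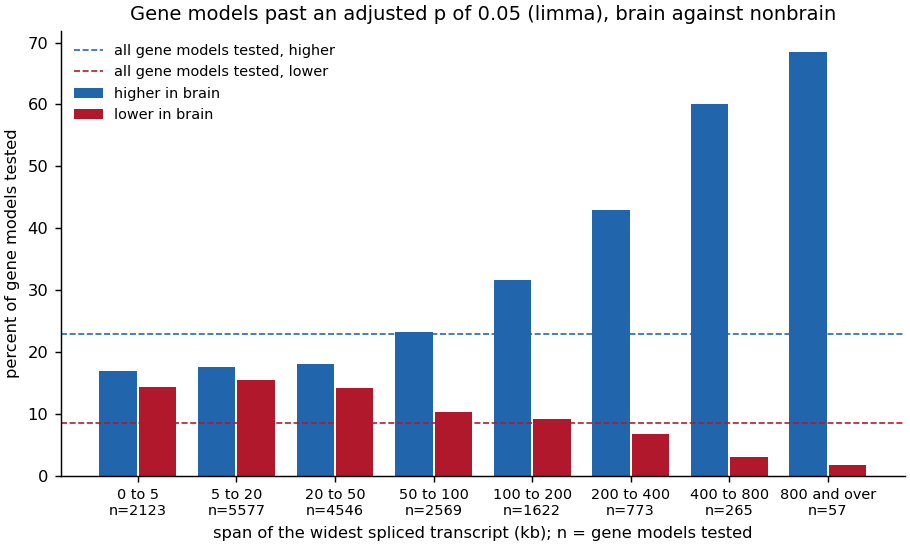
Percent of gene models tested that were higher or lower in brain at an adjusted p under 0.05 (limma, 4 brain against 4 nonbrain tissues), by span of the widest spliced transcript, with the number of models tested under each class. The share higher rises from 16.9% under 5 kb to 68.4% at 800 kb and more, and the share lower falls from 14.3% to 1.75%.

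The tissue with the highest mean of log2(value + 1) was a brain tissue for 769 of the 1095 long models (70.2%) and for 42.0% of the 20 to 50 kb models. Cortex led most often, in 244 long models (22.3%), followed by olfactory bulb (18.1%), whole brain (15.4%) and cerebellum (14.4%). Heart led the nonbrain tissues with 124 long models (11.3%).

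The 10 largest differences towards brain included those of transmitter receptors, ion channel components and adhesion proteins. Grin2a, a subunit of the NMDA glutamate receptor on chromosome 16, had splice junction values of 9684 in whole brain, 5898 in cerebellum, 21,071 in cortex and 7687 in olfactory bulb. The same design gave 3.208 in heart, 0.6685 in kidney, 0 in liver and 1.066 in the library labelled testis. The lncRNA design gave 13,941, 3156, 17,190 and 5035 in the brain tissues and 28.62, 0, 0 and 1.14 in the others, and runs of 4 values below keep these tissue orders. Every brain library was far above every nonbrain library, and Grin2a had the largest log2 difference of the long models, 11.87 ± 0.79 (SE, limma, adjusted p = 1.3e-05).

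Grin2b, the partner subunit that dominates early in development, had splice junction values of 2484, 159.5, 4676 and 3252 in the brain tissues and 0 in the 4 nonbrain tissues. Cerebellum was the lowest brain tissue in both designs, and the log2 difference was 11.01 ± 1.07 (limma, adjusted p = 0.00011). Unc80, a component of the sodium leak channel complex, was even across brain, with 18,763, 29,629, 31,338 and 30,870 in the splice junction design. Its nonbrain values were 17.64 in heart, 1.337 in kidney, 0 in liver and 9.064 in the library labelled testis. Its log2 difference was 11.46 ± 0.63 (limma, adjusted p = 4.9e-06).

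Pcsk2, a convertase that cleaves prohormones and neuropeptide precursors, reached 5005, 2020, 8056 and 2150 in the same 4 brain tissues and at most 1.604 in a nonbrain tissue with that design. The log2 difference was 11.68 ± 0.67 (limma, adjusted p = 5.9e-06). Slc4a10, a sodium bicarbonate transporter of neurons, had the smallest standard error of the 10 leading models (10.78 ± 0.36, limma, adjusted p = 1.6e-06), with 10,418 to 15,884 in brain and 0 to 2.674 in nonbrain splice junction libraries. The other leading models were Cntnap4 (a contactin-associated adhesion protein, 11.33), Scn2a (a voltage-gated sodium channel, 10.90), Tenm1 (a teneurin adhesion protein, 10.85), Dpp10 (an auxiliary subunit of potassium channels, 10.80) and Adgrb3 (an adhesion receptor of synapses, 10.38). In all 10 models the brain and nonbrain tissues did not overlap, as the naming rule required.

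The 10 largest differences towards the nonbrain tissues belonged to models that were highest in different organs. Mug1, a plasma protease inhibitor made by liver, had splice junction values of 0.8681, 0, 0 and 0 in the brain tissues and 3314 in heart, 2128 in kidney, 268,041 in liver and 1562 in the library labelled testis. Liver stood far above the other 3 nonbrain tissues, and the log2 difference was -10.86 ± 1.62 (limma, adjusted p = 0.0011). Mug1, Ces1d (a carboxylesterase, -9.39), Slco1a1 (an organic anion transporter, -8.55) and Slc22a30 (-6.25) belong to families of close copies, and how estimated fragments were divided among the copies is uncertain. Each of these models also joined exons of other annotated genes, among them Mug2, Ces1h, Slco1a6 and Slc22a28. Their values therefore cannot be given to 1 gene. Slc22a30 was at 0 in all 8 brain libraries, so that it was at least 2400-fold lower in brain with the splice junction design and at least 166-fold lower with the lncRNA design, from a floor of 3 fragments over the group.

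Pkhd1, the fibrocystin gene of kidney tubules and bile ducts, had splice junction values of 43.12, 30.67, 51.69 and 38.47 in the brain tissues. It had 1099 in heart, 62,712 in kidney, 5658 in liver and 546.5 in the library labelled testis, with a log2 difference of -6.29 ± 1.43 (limma, adjusted p = 0.0091). Aoah, a hydrolase that inactivates bacterial lipopolysaccharide, had 33.1 to 75.31 in brain and 676.9, 12,080, 520.3 and 554.5 in heart, kidney, liver and the library labelled testis. Its log2 difference was -5.25 ± 1.01 (limma, adjusted p = 0.0039), and kidney was the highest tissue of both Pkhd1 and Aoah.

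Col14a1, a collagen that associates with fibrils, was at 3795 or more in each nonbrain splice junction library (3795, 9742, 16,109 and 4602) and at 116.2 to 289.5 in brain (-4.91 ± 0.52, limma, adjusted p = 0.00016). The rest of the 10 were the lncRNA model D830032E09Rik (-5.14), highest in heart, Acoxl (an acyl-CoA oxidase-like protein, -5.06) and Slc22a22 (a prostaglandin transporter, -5.04). The call of D830032E09Rik was lost without any 1 of the brain tissues or liver (adjusted p = 0.0709 to 0.0902, limma) and that of Slc22a22 without any 1 of the brain tissues (0.0521 to 0.0664). The size of several differences rested on the highest tissue. It was -3.56 for Acoxl without the libraries labelled testis, -3.28 for D830032E09Rik without heart, -3.32 for Slc22a22, -4.06 for Aoah and -4.81 for Pkhd1 without kidney and -8.88 for Mug1 without liver, each still past the threshold (limma, adjusted p = 1.31e-05 to 0.00889).

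**Figure D4:**
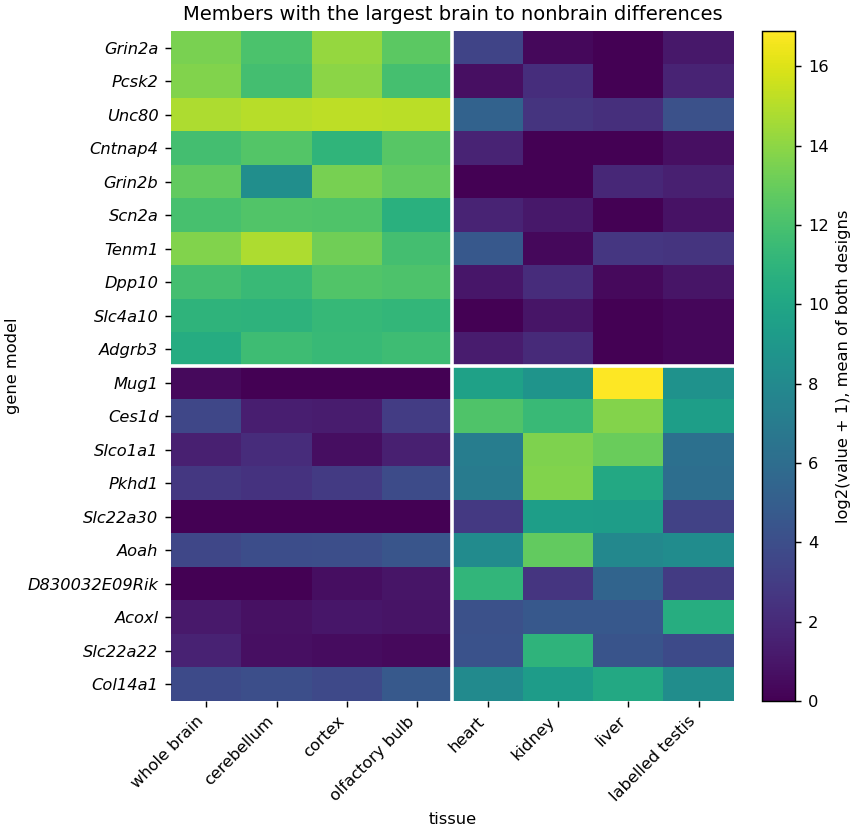
Mean of log2(value + 1) over both designs (colour) for the 10 long models with the largest brain to nonbrain differences in each direction (rows), by tissue (columns). The upper 10 models are high in all 4 brain tissues, with Grin2b lowest in cerebellum, and the lower 10 are high in 1 or more nonbrain tissues, Mug1 mainly in liver.

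The start regions of these models differed in CpG content, and 4 examples are shown from the named models, with the number of CpG dinucleotides in the sequence. Each line gives the 200 bases before the start site in RefSeq (GRCm38.p6), 5′ to 3′ along the gene, with CpG dinucleotides in capitals. Pcsk2 (chr2:143545933-143546132, plus strand, 29 CpG) and Unc80 (chr1:66467734-66467933, plus strand, 4 CpG) were higher in brain. Aoah (chr13:20793913-20794112, plus strand, 2 CpG) and Slc22a22 (chr15:57477626-57477825, minus strand, 0 CpG) were lower.
Pcsk2: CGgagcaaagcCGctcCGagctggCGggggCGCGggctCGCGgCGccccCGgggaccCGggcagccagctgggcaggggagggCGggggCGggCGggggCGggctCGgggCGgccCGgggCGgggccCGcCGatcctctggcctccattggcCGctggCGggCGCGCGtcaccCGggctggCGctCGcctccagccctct
Unc80: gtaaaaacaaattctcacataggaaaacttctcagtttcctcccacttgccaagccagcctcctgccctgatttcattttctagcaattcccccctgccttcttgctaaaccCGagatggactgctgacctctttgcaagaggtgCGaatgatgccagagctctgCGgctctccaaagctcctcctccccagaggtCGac
Aoah: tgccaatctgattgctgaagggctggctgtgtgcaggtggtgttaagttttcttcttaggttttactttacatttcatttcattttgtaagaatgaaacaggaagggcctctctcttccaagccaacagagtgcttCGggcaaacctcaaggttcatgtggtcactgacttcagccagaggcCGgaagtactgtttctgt
Slc22a22: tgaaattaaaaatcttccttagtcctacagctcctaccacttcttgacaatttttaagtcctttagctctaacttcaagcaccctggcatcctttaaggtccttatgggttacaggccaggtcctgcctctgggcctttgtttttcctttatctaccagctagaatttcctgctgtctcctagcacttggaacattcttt

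A RefSeq promoter of 300 bases (250 before and 50 after the start) was matched by symbol to 609 of the 1152 long models, where both starts lay within 1000 nt. The median ratio of observed to expected CpG was 0.717 in long models, 0.697 at 20 to 50 kb and 0.384 in all 32,851 promoters of the table. Within the long models it was 0.703 for those higher in brain, 0.65 for those lower and 0.779 for those past neither threshold. At 20 to 50 kb, the models lower in brain had 0.532. The letters TATAAA, on either strand, occurred in 6.08% of the long models' promoters, 9.23% at 20 to 50 kb and 13.6% of all promoters. GGGCGG, on either strand, occurred in 61.2%, 55.8% and 35.7%. These shares describe the matched models only.

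The long models were next grouped by the roles of their genes, from lists of textbook members that were likewise chosen with earlier results known. The direction of each list is given by its counts, with the background of 22.8% higher and 8.41% lower standing for all models. Among synaptic adhesion proteins and organisers, which hold the pre- and postsynaptic membranes together, 38 of 43 tested models were higher in brain, 0 were lower and the median log2 difference was 7.16 (6.94 with groups at 0 set to 3 fragments). Nlgn1, a postsynaptic neuroligin, reached 9.04 (adjusted p = 4.7e-05, limma) and Csmd3, a large complement-domain membrane protein, 9.18 (2.8e-06).

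Lrp1b had splice junction values of 17,192 in whole brain, 15,580 in cerebellum, 31,414 in cortex and 38,962 in olfactory bulb. It had 195.7 in heart, 22.06 in kidney, 2.61 in liver and 1.066 in the library labelled testis, with no overlap and a log2 difference of 9.26 (limma, adjusted p = 2.7e-05). The wide model of Cntnap2, which held 15 exons, differed by 8.78 (limma, adjusted p = 2.1e-06). The 5 adhesion models past no threshold were Adgrl2 (a latrophilin, -1.13, adjusted p = 0.35), Ptprd (2.32, 0.083), Tenm4 (3.31, 0.058), 1 of the Tenm2 models (3.42, 0.054) and Cntn5 (3.79, 0.053). Without heart, Cntn5 was higher (5.09, limma, adjusted p = 0.00337), and without liver, Ptprd was (3.06, 0.0217).

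Axon guidance genes, which code for cues such as semaphorins and slits and for their receptors, were higher in 13 of 17 tested models and lower in 0, with a median of 3.81 (3.73 at the floor). Among receptors and adaptors, Epha6, an ephrin receptor, differed by 7.75 (limma, adjusted p = 0.00077), Unc5c, a netrin receptor, by 5.39 (0.0051), Dcc, its partner receptor, by 4.76 (0.0011) and Dab1, the adaptor of reelin signalling, by 5.98 (5.2e-05). Among ligands, Reln, reelin itself, differed by 3.81 (0.018), while Slit2 (1.65, 0.33), Slit3 (1.25, 0.31), Sema3e (2.70, 0.066) and Sema5a (-0.47, 0.51) passed no threshold. The call of Reln was lost without cerebellum (adjusted p = 0.0539, limma) and without olfactory bulb (0.056).

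Ion channels and transmitter receptors were higher in 39 of 43 tested models and lower in 0, with a median of 6.68 (6.55 at the floor). Gria1, an AMPA receptor subunit, differed by 9.52 (limma, adjusted p = 1.6e-06), Gabrb1, a GABA receptor subunit, by 8.48 (3.7e-05), Grm7, a metabotropic glutamate receptor, by 6.73 (0.0017) and Kcnq3, a subunit of the M-type potassium channel, by 10.19 (0.00011). The 4 that passed no threshold were Cacna1c (3.22, 0.11), the L-type calcium channel that was highest in heart, and the potassium channels Kcnn2 (2.87, 0.1), Kcnh7 (1.81, 0.08) and Kcnt2 (1.81, 0.34). Without heart, Cacna1c was higher in brain (4.90, limma, adjusted p = 0.00019), and without cerebellum, Kcnh7 was (2.57, 0.00275).

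Neuronal scaffolds and RNA-binding proteins were higher in 31 of 36 tested models and lower in 0, with a median of 5.26. Rbfox3, the splicing regulator known as the neuronal marker NeuN, differed by 8.88 (limma, adjusted p = 7.1e-06). The 2 long models of Dlg2, both of which reached into its unassembled intron, differed by 6.19 (1e-05) and 8.63 (4.7e-05), and those of Rbfox1 by 4.54 (3.1e-05) and 5.52 (0.0084). The scaffold models that passed no threshold included Dst (-0.25, 0.79) and Macf1 (0.46, 0.36), cytoskeletal linkers that were highest in heart.

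Signalling enzymes were higher in 14 of 24 tested models and lower in 0, with a median of 2.79. Adcy2, an adenylyl cyclase, differed by 6.96 (limma, adjusted p = 4.4e-05) and Dgkb, a diacylglycerol kinase, by 6.73 (0.00038). Of the transcription factors, 5 of 24 were higher and 1 was lower, with a median of 0.37, so that the share higher was near the background. The higher ones included Npas3, a PAS-domain factor (7.42, 1.8e-05), the forkhead factor Foxp2 (3.09, 0.017), the GATA cofactor Zfpm2 (2.98, 0.037) and the helix-loop-helix factor Tcf4 (2.08, 0.0077), and Esr1, the oestrogen receptor, was lower (-2.60, 0.029). Of these, Npas3 and Tcf4 kept the threshold whichever tissue was left out, and the other 3 lost it without 1 or more tissues, with adjusted p-values of up to 0.1 for Zfpm2, 0.0809 for Esr1 and 0.0539 for Foxp2 (limma).

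Broadly used genes and fragile site genes had a median of 0.62, with 7 of 30 higher and 1 lower, again near the background share. Wwox, a fragile site oxidoreductase, differed by 0.71 (limma, adjusted p = 0.38), Fhit by -0.61 (0.46) and Vps13b, a lipid transfer protein, by -0.03 (0.94). Spidr, a scaffold in DNA repair, was lower (-1.37, 0.04). The extracellular matrix list had 4 higher and 3 lower of 15, with a median of 0.53. Its lower members were Col14a1, Fbn1 (fibrillin, -2.23, 0.028) and Fndc3b (-1.14, 0.035), and Col19a1 (5.27, 0.0014) led the higher ones. The calls of Spidr, Fbn1 and Fndc3b were each lost without 1 of at least 4 tissues (adjusted p of up to 0.116, 0.0757 and 0.0954, limma).

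Kidney and liver genes were the only list with a negative median, at -0.70, and 0 of 11 were higher. The 4 lower members were Pkhd1, Ghr (the growth hormone receptor, -4.13, limma, adjusted p = 0.0027), Prlr (the prolactin receptor, -4.27, 0.026) and Bicc1 (an RNA-binding protein of tubules, -2.37, 0.024). Prlr lost the threshold without 1 of 4 tissues (up to 0.0763) and Bicc1 without 1 of 3 (up to 0.0664). Striated muscle genes had 2 higher, 2 lower and 14 past no threshold among 18 tested, with a median of 0.41, and 3 of the 18 were highest in a brain tissue.

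Dmd had splice junction values of 15,040, 15,752, 38,211 and 13,892 in the brain tissues, 85,756 in heart and 1400 to 2090 in kidney, liver and the library labelled testis. Ryr2 had 32,205, 47,495, 66,613 and 58,335 in the brain tissues, 521,928 in heart and 1422 to 3450 in the others. In both, heart was highest and the brain tissues lay above the other nonbrain tissues, so that the groups overlapped and neither passed the test (1.66 and 2.54, limma, adjusted p = 0.23 and 0.31). Without heart, both were higher in brain (2.80 and 4.68, limma, adjusted p = 0.0014 and 0.000121).

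Ttn, the gene of the giant sarcomere protein titin, was listed at 0 in the heart library of the splice junction design, while the heart library of the lncRNA design had 16,061 and the kidney, liver and labelled testis libraries of the splice junction design had 6525, 11,840 and 5828. No other long model was listed at 0 in a splice junction library where its tissue had at least 1000 with the other design. A 0 of this kind can be an estimate that failed, and the log2 difference of Ttn (-2.72, limma, adjusted p = 0.0068) includes it. Palld, an actin-binding protein, was the other lower muscle model (-3.85, 0.00038).

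Without the libraries labelled testis, 3 brain lists were close to the counts above, with 39 of 43 higher among synaptic adhesion models, 14 of 17 in axon guidance and 38 of 43 among ion channels and receptors, and 0 lower in each. The muscle list had 1 higher and 2 lower, and its median turned from 0.41 to -0.12. The kidney and liver list had 5 lower, the matrix list 5 higher and 2 lower, the transcription factors 4 higher and 2 lower, and the broadly used and fragile site genes 6 higher and 0 lower. Of 329 named results, 14 lost the threshold without these libraries, among them Tenm3 (2.80, limma, adjusted p = 0.108), Cacna2d1 (3.83, 0.0917), Cacnb2 (3.11, 0.0979), Esr1 (-2.45, 0.062), Zfpm2 (2.33, 0.0775), Fbn1 (-2.13, 0.0572) and Spidr (-1.16, 0.0894). A total of 9 passed it, among them Tenm4 (4.46, 0.00441), 1 of the Tenm2 models (4.64, 0.00247), Sema3e (3.77, 0.00187), Erbb4 (1.59, 0.029) and Cubn (-4.74, 0.0364), the endocytic receptor of kidney tubules.

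Among lncRNAs, the long models of Rmst, a transcript of neural differentiation, and Sox2ot, which overlaps the gene of the stem cell factor Sox2, were higher in brain. Rmst had lncRNA design values of 63,496 in whole brain, 13,346 in cerebellum, 13,684 in cortex and 8143 in olfactory bulb. It had 8696 in heart and 16.9 to 20.59 in kidney, liver and the library labelled testis. Heart overlapped the brain tissues, and the log2 difference was 7.67 ± 1.76 (limma, adjusted p = 0.0095). Sox2ot had 14,976, 5007, 8600 and 21,365 in the brain tissues against 62.01, 806, 0 and 10.26, without overlap (8.09 ± 1.29, adjusted p = 0.0015).

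The lncRNA A230006K03Rik spanned 830,586 nt on chromosome 7 and was listed at 0 in all 8 nonbrain libraries, against 11,971, 556.6, 15,366 and 6284 in the brain tissues with the lncRNA design. The lncRNA 6530403H02Rik differed by 6.37 (limma, adjusted p = 0.0061) and was highest in cerebellum. Pvt1, the lncRNA beside Myc, differed by 1.63 (0.052), and Mir99ahg, a host of microRNA genes, by 0.39 (0.66) with its highest level in heart. Neither of the last 2 passed the threshold.

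The 6 long models without a GENCODE gene lay on chromosomes 14, 15, 4, 16, 12 and 1 and had 3 to 9 exons. All were highest in a brain tissue, and 5 were past the threshold towards brain. The background was 22.8% of all models, and 30.2% of the 63 tested models of 20 to 50 kb without a GENCODE gene. Models outside the annotation were assembled from reads of these same libraries, so their existence and their values are not independent. XLOC_017405 (chr14:111440550-111674735, minus strand, 8 exons) had lncRNA design values of 3696 in whole brain, 112.9 in cerebellum, 4007 in cortex and 3403 in olfactory bulb and 0 in all nonbrain libraries, at least 1470-fold higher in brain. XLOC_037157 (chr4:69167451-69395442, minus strand, 8 exons) had 342.4, 7.877, 18.24 and 3883, so that olfactory bulb stood apart. XLOC_019040 (chr15:74232628-74481308, minus strand, 9 exons) had 1573, 618.3, 2008 and 1512 in brain and up to 47.7 in nonbrain libraries.

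Single brain tissues were compared by size alone, since each had 1 library per design. A model was counted where a tissue lay at least 2-fold from the mean of the other 3 brain tissues on the log2 scale, in the same direction and outside their range in both designs. Cerebellum was lower for 235 of the 1095 long models (21.5%, against a background of 4.68% of all models and 5.98% at 20 to 50 kb). It was higher for 90 (8.22%, background 5.03%). Cortex was higher for 90 (8.22%, background 2.65%) and lower for 58 (5.3%, background 1.47%). Olfactory bulb was higher for 95 (8.68%, background 5.65%) and lower for 93 (8.49%, background 2.33%). Whole brain, which contains the other 3, was higher for 41 (3.74%, background 1.37%) and lower for 7 (0.639%, background 5.68%).

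Models low in cerebellum included genes of synapses and of neuronal signalling. Dlgap2, a postsynaptic scaffold, had splice junction values of 3246 in whole brain, 131.1 in cerebellum, 5743 in cortex and 4189 in olfactory bulb, and its difference averaged over both designs was -5.69 on the log2 scale. Rasgrf2, a Ras activator, had 5843, 234.6, 8716 and 5274 (-5.21), and Kcnq5, an M-type potassium channel subunit, had 3897, 160.6, 8147 and 2644 (-5.15). In all 3, cerebellum was more than 10 times below the next lowest tissue in this design. St18, a zinc finger factor, ran the other way with 1444, 8821, 486.8 and 297.2. Corin, a serine protease, had the largest difference towards cerebellum, 4.06.

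In olfactory bulb, Adamts19, a secreted protease, had 6212 against 144.4 in whole brain, 32.97 in cerebellum and 74.38 in cortex. Cpa6, a carboxypeptidase, had 5401 against 328.7, 26.45 and 63.22, and Trdn, triadin of the muscle calcium release complex, had 1039 against 50.06, 6.134 and 5.95. These 3 models differed by 6.21, 6.10 and 6.04 on the log2 scale, the mean of both designs. Triadin was nonetheless highest in heart, at 37,293. Kcnab1, a potassium channel subunit, was low in olfactory bulb, with 746.6 against 7937, 11,023 and 6673 (-3.80).

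Cortex stood apart for Kcnt2, a sodium-activated potassium channel, with 10,063 against 5795 in whole brain, 136.5 in cerebellum and 917.5 in olfactory bulb (3.45). Pde1a, a calmodulin-dependent phosphodiesterase, had 11,366 against 6344, 211.6 and 1086 (3.35). Dnah11, a dynein of motile cilia, was lower in cortex, with 201.9 against 1745, 7435 and 14,349 (-3.79). Prlr had 846.7 in whole brain against 782.9, 65.45 and 23.48 in the other brain tissues, and lay 3.21 above their mean on the log2 scale, although cerebellum was close to it in this design. All of these are descriptions of single libraries.

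**Figure D5:**
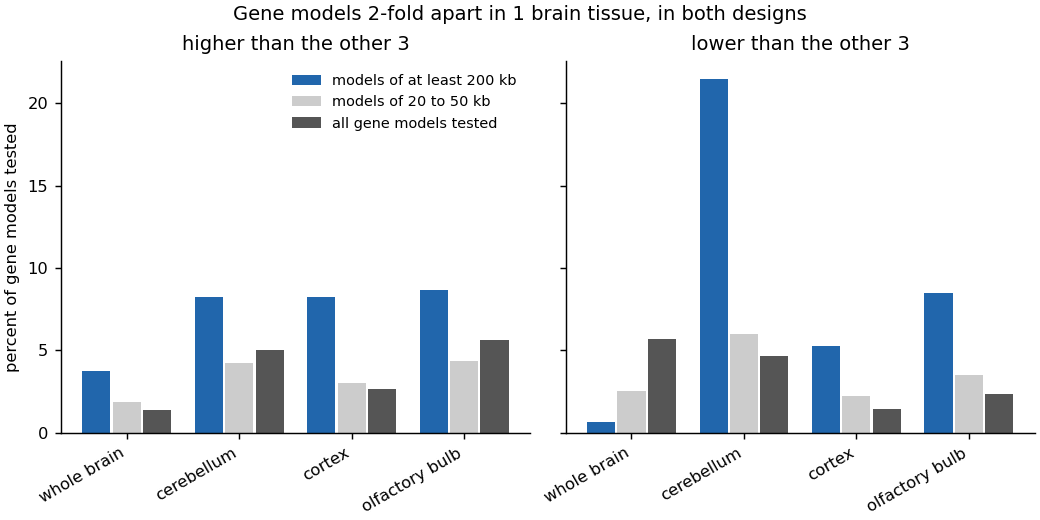
Percent of gene models tested that lay at least 2-fold above (first panel) or below (second panel) the mean of the other 3 brain tissues in both designs, for long models, models of 20 to 50 kb and all models, by brain tissue. The highest bar is cerebellum in the panel of lower models, at 21.5% of the long models against 5.98% at 20 to 50 kb.

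The capture designs were compared within tissues, with limma on the 16 libraries and tissue as a factor. Of the 1095 long models, 229 (20.9%) were higher with the lncRNA design, against a background of 60.7% of all models, and 736 (67.2%) were higher with the splice junction design, against a background of 33.6%. The 20 to 50 kb models gave 32.0% and 61.0%. The background was moved by a median log2 difference of 2.80 over all models tested, and the long models had a median of -2.57. Quantile normalization brought the median of all models to 0.88 and the shares of long models to 11.8% and 76.7%. Protein-coding and lncRNA long models parted, with 15.8% higher and 72.2% lower for the first and 86.8% higher and 2.94% lower for the second. The 20 to 50 kb models parted in the same way, so the split was not particular to long models. There, 24.6% of protein-coding models were higher and 68.2% lower, and 87.7% of lncRNA models were higher and 6.04% lower.

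The largest difference towards the lncRNA design was that of 3110039I08Rik, an lncRNA on chromosome 9. Its values were 15,141, 11,106, 20,196 and 22,500 in the brain tissues and 6807, 2852, 836.4 and 5575 in heart, kidney, liver and the tissue labelled testis. With the splice junction design they were 42.83, 45.62, 72.52 and 79.76 in brain and 25.66, 3.342, 2.61 and 14.93 in the other tissues. The lncRNA design was higher in all 8 tissues, with a log2 difference of 8.28 ± 0.18 (limma, adjusted p = 1.1e-11). Protein-coding symbols were among the models higher in the lncRNA design too, such as Atg7, an enzyme of autophagy, with 1343 to 7532 in the lncRNA design and 9.624 to 52.25 in the splice junction design (7.60 ± 0.29, adjusted p = 2.7e-10).

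Both models of Nav3, a microtubule-binding neuron navigator, show how 1 gene was split between the designs. The model with 37 exons in its widest transcript (chr10:109681380-110000276, minus strand) had splice junction values of 3459, 1252, 7556 and 3100 and lncRNA design values of 211.3, 30.19, 334 and 99.49 in the 4 brain tissues. The model with 5 exons beside it (chr10:110088681-110454273, minus strand) had 2.894, 3.834, 13.76 and 4.454 in the splice junction design and 8065, 6093, 20,145 and 12,233 in the lncRNA design. The second had a log2 difference between designs of 8.12 ± 0.88 (limma, adjusted p = 3e-06).

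The largest difference towards the splice junction design was that of Folh1, a glutamate carboxypeptidase, with 2093, 2186, 1248 and 1871 in brain and 20,615 in kidney, against 4.21 to 13.7 in brain and 77.73 in kidney with the lncRNA design (-7.77 ± 0.25, limma, adjusted p = 7.1e-11). F8, coagulation factor VIII, had 14,774 in liver with the splice junction design and 126.1 with the lncRNA design (-7.30 ± 0.18, adjusted p = 1.8e-11). Kidney and liver remained the highest tissue of Folh1 and F8 in both designs.

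The brain effect itself was compared between designs, by the difference of log2(value + 1) between designs in each tissue. Of the long models, 74 (6.76%) had a higher brain effect with the lncRNA design, against a background of 14.7%, and 178 (16.3%) had a lower one, against a background of 5.23%. At 20 to 50 kb the shares were 9.28% and 5.13%. The share with a lower effect was 14.7% at 200 to 400 kb, 18.9% at 400 to 800 kb and 24.6% at 800 kb and more. It depended on the scaling. Quantile normalization, under which all models tested had a median of -0.49 in place of 0.24, gave 5.94% higher and 30.7% lower (background 11.9% and 11.8%), and scaling to the total outside the spike-ins gave 5.66% and 55.3% (background 14.9% and 21%).

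Several of the largest differences belonged to models whose brain values were far lower with 1 of the designs. Lrrtm4, a leucine-rich synaptic adhesion protein, had lncRNA design values of 18,735, 1675, 19,948 and 16,113 in brain and splice junction values of 59.03, 16.1, 114.5 and 133.2. Its nonbrain values were at most 6.838, and the difference of brain effects was 6.57 ± 0.71 (limma, adjusted p = 6.3e-05). Il1rapl2, a synaptic receptor of the interleukin-1 receptor family, had the opposite order, with 400.2, 33.74, 759.8 and 584.3 in the splice junction design and at most 4.21 in the lncRNA design (-6.95 ± 0.79, adjusted p = 8.8e-05). For 7 of the 20 named models, Il1rapl2 and A230006K03Rik among them, all nonbrain libraries were at 0, and the difference then equals that between designs in brain alone.

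Dock3, a neuronal activator of Rac, had brain values of 9922 or more in both designs. Its splice junction values were 17,807, 14,192, 27,915 and 30,304 in brain against 27.27, 10.03, 0.87 and 4.799 in nonbrain libraries. With the lncRNA design, brain had 25,216, 9922, 24,889 and 22,963 and the nonbrain libraries had 372.1, 648.9, 808 and 336.2. The splice junction value of 0.87 in liver is that of 1 fragment. The mean log2 difference of the lncRNA design from the splice junction design was -0.14 in brain and 6.06 in nonbrain tissues. Brain was higher without overlap in both designs, and the difference of effects was -6.20 ± 0.79 (limma, adjusted p = 0.00019).

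The share of a model's value that lay on its wide isoforms was compared last. A wide isoform was a spliced transcript of at least 50% of the model's widest span, and models averaging 20 or more in every tissue entered, 464 long models among 6815 in all. The share was higher in brain for 14 long models (3.02%, background 1.16%) and lower for 8 (1.72%, background 0.719%). These shares rest on the division of fragments among isoforms by the assembly software.

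Etl4, also known as Skt, a gene of intervertebral disc development, had 91.6% of its value on wide isoforms in brain and 2.44% in nonbrain tissues, a difference of 89.2 ± 1.88 percentage points (SE, limma, adjusted p = 1e-05). The percents were 95.1, 97.2, 96.0 and 87.9 in the brain tissues and 6.53, 2.25e-13, 3.53 and 9.48 in heart, kidney, liver and the library labelled testis with the splice junction design, and the lncRNA design gave 83.8 to 94.1 in brain and at most 0.00184 elsewhere. The brain value lay on a transcript of 900,934 nt (chr2:19909780-20810713), and the nonbrain value on transcripts of 262,734 nt (chr2:20547980-20810713) and 88,089 nt (chr2:20722625-20810713) with the same end.

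Scn1a, a sodium channel of inhibitory neurons, differed by 62.7 ± 1.45 percentage points (limma, adjusted p = 1e-05), but its model also held exons of the neighbouring Ttc21b, a cilium gene. In nonbrain tissues the value of this joined model lay mostly on a transcript of 72,291 nt (chr2:66184327-66256617) with an annotated intron chain. That transcript did not overlap another annotated one (chr2:66270781-66440837), which carried part of the brain value. The difference therefore cannot be given to isoforms of Scn1a alone. Pde4b, a cyclic AMP phosphodiesterase, had 49.1% on wide isoforms in brain and 0.83% elsewhere, and Oxr1, an oxidation resistance gene, had 50.7% and 6.52%. With the splice junction design, however, Oxr1 had 24.3 to 27.3% in brain and 31.2% in heart, and its shift lay in the lncRNA design, with 67.2 to 88.9% in brain and at most 13.8% elsewhere. Inpp4b, a phosphoinositide phosphatase, had 94.5% and 34.3%, and in each of these 3 models part of the nonbrain value lay on shorter transcripts. The call of Pde4b was lost without any 1 of 7 tissues (adjusted p = 0.0656 to 0.105, limma) and that of Inpp4b without any 1 of 4 (0.0539 to 0.0583).

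In the other direction, Dpyd, which encodes an enzyme that breaks down pyrimidines in liver, differed by -54.2 ± 1.62 percentage points (limma, adjusted p = 3.8e-05). Its wide isoforms held 75.5, 78.7, 65.9 and 74.8% in the brain tissues with the splice junction design and 79.2 to 87.2% in the nonbrain tissues. With the lncRNA design they held 2.38, 0.588, 0.109 and 0.819% in brain and 95.6 to 100% elsewhere. The model also held exons of other genes, and a transcript at chr3:118430021-118517444 carried much of the brain value. App, the amyloid precursor gene, had 61.2% in brain and 78.6% elsewhere, with 16.0 to 31.5% against 51.8 to 60.5% in the lncRNA design and 96.3 to 99.9% against 99.1 to 100% in the splice junction design. The shift in Dpyd and App was therefore large in 1 design only, and the call of App was lost without any 1 of 4 tissues (adjusted p = 0.0517 to 0.0605, limma).

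The spans of long models also held single-exon gene models on the same strand, at 9.03 per Mb of host span against 10.8 per Mb in the 20 to 50 kb models. A total of 3847 such models lay within 723 long models, and 3121 of them were tested. Of these, 34.3% were higher in brain and 0.769% lower, against a background of 22.8% and 8.41%. That background pools single-exon with spliced models, and the 17,532 spliced models alone gave 21.7% and 13.1%. A background of single-exon models only was not made, so the background does not show whether the low share of lower models is particular to these hosts. Single-exon models inside the 20 to 50 kb models gave 10.9% and 2.99% of 1538 tested. Whether such a model is a transcript of its own or part of the host's unspliced RNA cannot be told apart from these values.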

How the data were processed

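CaptureSeq libraries of 8 adult C57BL/6J mouse tissues, 1 per tissue and capture design, were analysed, 16 in all. Per the submitters' processing notes and the study's methods, the authors used TopHat2 (GRCm38) for alignment, built 1 merged assembly in Cufflinks 2.2.1 with GENCODE M4 as the guide, and scaled the libraries in Cuffnorm 2.2.1. Per the labels and headers, the signal in the deposited table is an estimate of fragments per transcript after that scaling, not whole counts. It was summed per gene identifier, and models without a placed chromosome were set aside. Summed values up to 20 steps were whole multiples, within 0.1 of a step, of the value of 1 fragment in their library, which gave the depth per library and a total of 395,430,774 fragments. One assembled transcript had no value and was dropped. Intervals and floors cover counting error only, and amplified fragments are not independent molecules.

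Models whose mean value reached 10 or more were tested with limma 3.58.1 (R 4.3.3) on log2(value + 1), with Benjamini-Hochberg adjustment over all 30,849. Brain and nonbrain were compared over tissue means of both designs, the designs over 16 libraries with tissue as a factor, and the brain effects over differences between designs within each tissue. Wide-isoform shares were compared with limma over tissues. Single brain tissues were described without a test. The brain against nonbrain fit was tested on simulated data, where few of the smaller changes were called. The simulated noise was independent between tissues, so it left out the overlap of whole brain with the other brain tissues. Tables were made with Python 3.11.15, pandas 2.3.3, NumPy 2.4.6 and SciPy 1.17.1. Spans, introns and classes came from the deposited assembly, and annotation from GENCODE M21 and RefSeq. The long models and the gene lists were chosen with earlier results of these data known.

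The models named are the long models of the lists, the 10 largest differences in each direction among long models past the threshold with an annotated symbol and groups that did not overlap, the 10 widest models, the 10 longest introns, the 5 largest differences per brain tissue and direction, and the models without a GENCODE gene. The values of Ttn, the split of Nav3 and the models that led each library were chosen for the text after their values were seen. Alternatives were another pseudocount, other filters, quantile normalization and scaling to the total outside the spike-ins, limma-voom on recovered fragments, each design alone, other spans and isoform limits, annotated chains only, and leaving out each tissue. A stretch of chromosome 8 was not analysed here, and some named models are not reported here.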

Additional observations from a re-analysis of the deposited data

Results flagged for a closer look

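In 56 groups of 4 tissues, the highest or lowest tissue was compared with the rest, and 7 stood far from the other 3. Chance marks about 1 group in 20 (5%). The first was the share of the long models' value on their 10 leading models in brain with the lncRNA design, which was 40.0% in cerebellum and 29.6 to 30.4% in the other brain tissues. The other 6 are values of single models as the mean of log2(value + 1) over both designs. Grin2b had 8.34 in cerebellum, against a median of 12.85 in the other brain tissues. Mug1 had 0.45 in whole brain, where the other brain tissues were at 0, and 16.89 in liver, against a median of 8.74 in the other nonbrain tissues. Aoah had 12.84 in kidney against 8.16, Slc22a22 had 11.0 in kidney against 4.25, and Acoxl had 10.53 in the tissue labelled testis against 4.66. Their causes were not tested.

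For 20 named long models, the brain to nonbrain difference on the log2(value + 1) scale differed between the capture designs by the test of that difference (limma). With the lncRNA design minus the splice junction design, it was 7.44 for Dpyd, 6.88 for the lncRNA A330008L17Rik, 6.57 for Lrrtm4, 6.39 for Nol4, 6.37 for Slc22a22, 6.20 for Fam155a, 5.94 for Acoxl, 5.88 for the lncRNA Gm28928, 5.56 for Upp2 and 5.53 for A230006K03Rik. It was -6.95 for Il1rapl2, -6.71 for Spag16, -6.21 for Galntl6, -6.20 for Dock3, -5.67 for Armc4, -5.57 for Nell1, -5.53 for Fam135b, -5.43 for the lncRNA 6330411D24Rik, -5.41 for Klhl1 and -5.39 for Dlgap2. The adjusted p-values ran from 1.2e-05 to 0.0032. In Dpyd, brain had 641 to 1805 and liver 97,007 with the splice junction design, while brain had 446.3 to 3847 and liver 1114 with the lncRNA design. Nol4 had 3760 to 16,838 in brain with the lncRNA design and 38.34 to 86.65 with the splice junction design.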

How the results depend on the processing

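For 329 named results, recomputed under the alternatives, 4671 of 5043 values kept their direction and side of the threshold, 279 lost the threshold, 85 passed it and 8 reversed. The reversed log2 differences towards brain were -0.029 for Ube2e2 and 1.49 for Vps13b with limma-voom on recovered fragments. The reversed share differences, in percentage points, were 8.99 for Cdkal1, 4.53 for Arhgap15, 15.9 for Ndnf and 7.58 for Gramd1b with isoforms of at least 80% of the span, and 0.16 for Arhgap15 and 0.27 for Mbd5 with the lncRNA design alone.

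The percent of long models lower in brain was 3.2 with scaling to the total outside the spike-ins, 3.38 with each design alone and 2.8 at 400 kb and more. The percent higher with the lncRNA design was 11.8 after quantile normalization. The percent with a lower brain effect in the lncRNA design was 25.9 with a pseudocount of 16, 30.7 after quantile normalization and 55.3 with scaling to the total outside the spike-ins. Wide-isoform shares were higher in brain in 1.51% (lncRNA design alone) and 4.67% (80% of the span), and lower in 0.862% (lncRNA design alone) and 4.09% (splice junction design alone). With a 4-fold limit, the percent higher and lower was 0.365 and 0 in whole brain, 2.37 and 10.3 in cerebellum, 2.28 and 1.37 in cortex and 3.11 and 2.83 in olfactory bulb. With a pseudocount of 16, whole brain was higher for 2.1% and lower for 0.365%, cortex lower for 3.47% and olfactory bulb higher for 5.66%. After quantile normalization, whole brain was lower for 0.365% and cortex higher for 4.2%. These causes were not tested.

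Leaving out each tissue in turn gave 41.6 to 51.9% higher and 3.01 to 5.75% lower in brain, with 3.01% without cortex, 3.11% without olfactory bulb and 3.38% without cerebellum. It gave 19.9 to 21.6% higher and 66.1 to 67.1% lower with the lncRNA design, 4.57 to 7.12% with a higher and 10.3 to 17.2% with a lower brain effect in that design (10.3% without cortex, 10.7% without cerebellum), and wide-isoform shares higher in 1.72 to 3.66% (1.72% without cortex or liver, 1.94% without cerebellum or kidney) and lower in 1.08 to 1.72% (1.08% without liver). For brain against nonbrain, no tissue is shared, and all libraries carry the same replicate number in the labels. No paired analysis was possible because of this, whereas the designs were compared within tissues in every fit.

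The limits are 1 library per tissue and design and a tissue labelled testis without germ cell markers. Whole brain contains the other brain tissues, which the fits counted as separate units. The group contrast cannot be told apart from extraction and capture pool, and isoform values rest on the assembly. Depth limits the models with few fragments, where a 0 allows up to 3 fragments.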
